A study of Sus scrofa with 6 samples.

Results

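The mature microRNAs (miRNAs) ssc-miR-99a, ssc-miR-99b, ssc-miR-100, ssc-miR-125a and ssc-miR-125b were followed in skin of Xiang pigs, a Chinese breed of Sus scrofa. They are 5 of the 898 miRNAs in the deposited table and were chosen by name as the miR-99/100 and miR-125 families. All 5 passed the filter on low values, as did 454 of the 898 miRNAs. Small RNA was sequenced in 6 libraries, of which S03, S04 and S05 are black skin and S02, S06 and S07 are white skin, 3 each. Both groups are whole skin of the Xiang strain, cleaned with alcohol, freed of hair and kept frozen in a preservative, and skin colour is the one difference that the labels give. The labels state neither the animals, body sites, sex nor age behind the libraries, so the p-values reflect how much these 6 samples scatter, part of which may be technical. In whole skin, fewer cells of a type and less of a miRNA per cell cannot be told apart.

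A miRNA guides an Argonaute protein to messenger RNAs that pair with its seed, the short stretch near its 5′ end. miR-99a, miR-99b and miR-100 share a seed and form a family known in mammals for repressing genes of the insulin-like growth factor and mTOR pathway, MTOR itself among them. miR-125a and miR-125b are the vertebrate relatives of lin-4, which times larval development in Caenorhabditis elegans. In the mouse, miR-125b is known as a regulator of skin stem cells and hair follicle differentiation. In mammals the hairpins of both families lie in clusters, each with a hairpin of the let-7 family, and let-7 miRNAs are known for restraining growth-promoting genes in differentiated tissue.

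The libraries held 6454685 to 10165949 reads on listed miRNAs. The values are RPM, read numbers scaled to a total of 1000000 over all listed miRNAs of a library, and are therefore shares. A miRNA read covers its short molecule as a whole, so no length term enters when RPM of different miRNAs are compared. How evenly different miRNAs are captured as reads was not measured. Levels, shares and ratios of different miRNAs are therefore those of reads, not of molecules. In a principal component analysis, component 1 (50.9% of the variance) parted black from white skin. On component 2 (20.3%) S02 lay at -9.24, apart from S06 at 2.77 and S07 at 6.10, all 3 of them white skin. Among the marker lists, the smooth muscle miRNAs miR-143 and miR-145 summed to 64998 to 84502 RPM in black skin and 26728 to 34192 RPM in white skin, with 1 of 4 products higher and 0 lower. The products of the endothelial miR-126 summed to 28989 to 35451 RPM in black skin and 17322 to 23899 RPM in white skin, with 2 of 2 higher. The keratinocyte miRNA ssc-miR-205 was present at 14237 ± 2596 RPM in black skin and 19830 ± 4277 RPM in white skin (SD, n = 3 each), while the other 4 keratinocyte markers, and miR-211 and miR-223 of the melanocyte and leukocyte lists, were not analysed here. ssc-miR-204, the melanocyte marker analysed, ran from 88.5 to 135 RPM in black skin and 57.7 to 71.1 RPM in white skin and did not pass the test (limma, adjusted p = 0.0804). In the leukocyte list 1 of 3 products was higher, ssc-miR-142-3p at 190 ± 78.5 RPM in black skin and 49.1 ± 24.2 RPM in white skin (SD, n = 3 each; limma, adjusted p = 0.0324). The sums of that list, and of the erythroid, striated muscle, neural and fibroblast lists, overlapped between the groups, and the neuronal ssc-miR-124a was near 0 throughout, with a mean of 0.424 RPM over the black libraries and 0.0656 RPM over the white ones. The part of these cell type markers in the results below was not tested.

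**Figure D1:**
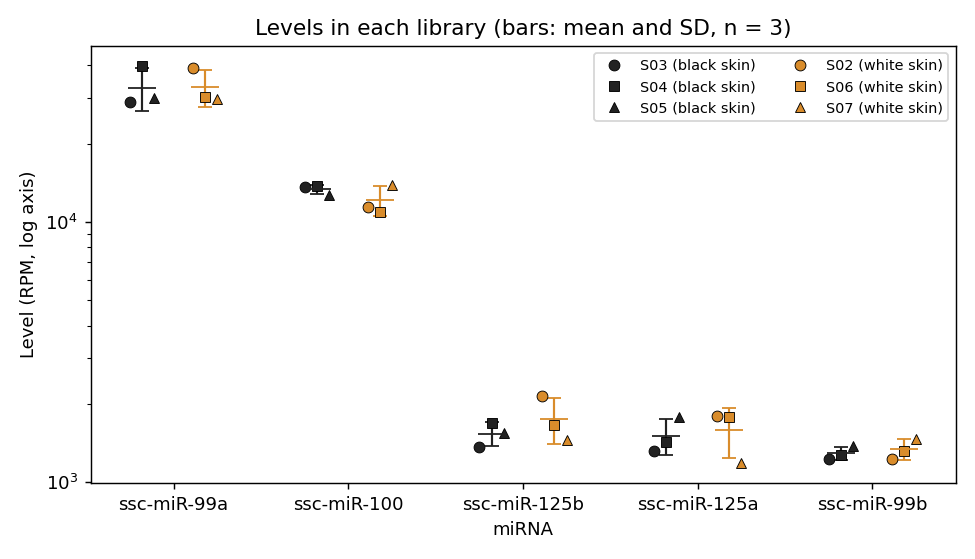
Level of each of the 5 miRNAs in each library, in RPM on a log axis, with black skin left of white skin in each pair; points are libraries and bars the mean and SD of 3. For each miRNA the points of the groups overlap, and ssc-miR-99a and ssc-miR-100 stand above the other three in every library.

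The 5 miRNAs had 2 tiers of read levels in skin, and none of them passed the test between black and white skin. Of the 5, 0 were called at an adjusted p under 0.05 by limma, against 7.05% of the 454 miRNAs tested (18 higher, 14 lower). At an unadjusted p under 0.05, 0 of the 5 passed by limma, edgeR, DESeq2 or limma-voom, where 25.6%, 26%, 23.8% and 25.6% of the tested miRNAs did. At adjusted p under 0.05, edgeR, DESeq2 and limma-voom on the recovered reads called 0 of the 5 as well. The background in these tests was 6.61%, 11.7% and 6.83% of the tested miRNAs. In all 5 the levels of the groups overlapped, and 27.3% of the tested miRNAs had no overlap. Among only 5 miRNAs, counts of 0 are not far from these shares and are not a result about the 5. Two-sided exact permutation tests of their RPM gave p = 0.9 for ssc-miR-99a and ssc-miR-125a, 0.6 for ssc-miR-99b, 0.5 for ssc-miR-125b and 0.4 for ssc-miR-100.

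ssc-miR-99a, the most abundant of them, measured 28813 (S03), 39787 (S04) and 29814 (S05) RPM in black skin, against 39100.5 (S02), 30201 (S06) and 29769 (S07) RPM in white skin. In each group 1 library, S04 in black and S02 in white skin, stood above the others, and the groups overlapped over nearly their whole range. The means were 32805 ± 6068 RPM in black skin and 33024 ± 5267 RPM in white skin (SD, n = 3 each), and it held rank 8 to 10 among all listed miRNAs in every library. On the log2(RPM + 1) scale, black minus white, it differed by -0.01, standard error 0.19 (limma, Benjamini-Hochberg adjusted p = 0.971). Its 95% interval ran from -0.43 to 0.41, that is from 1.35-fold lower to 1.33-fold higher in black skin. Of the 454 tested miRNAs, 6 had a smaller absolute difference.

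ssc-miR-100, whose mature sequence is nearly that of miR-99a, measured 13585 (S03), 13726 (S04) and 12706 (S05) RPM in black skin and 11447 (S02), 10945 (S06) and 13928 (S07) RPM in white skin. The black libraries lay close together, and the white library S07 was the highest of all 6. Its means were 13339 ± 553 RPM in black skin and 12106.5 ± 1597 RPM in white skin (SD, n = 3 each). It differed by 0.15, standard error 0.16 (limma, adjusted p = 0.645), and its interval of -0.21 to 0.50 allows at most a 1.41-fold rise. Its coefficient of variation was 4.14% in black and 13.2% in white skin, against a median over tested miRNAs of 21.3% in black and 28.5% in white skin. That median covers many scarcer miRNAs, as only 53 of the 454 had a mean of at least 1000 RPM. Of others above that level, ssc-let-7e (4.25%) and ssc-miR-99b (5.82%) varied about as little in black skin. ssc-miR-99a (18.5%) and ssc-miR-10b (23.7%) varied more.

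ssc-miR-99b, the third member of the seed family, was scarce beside these, with 1225 (S03), 1279 (S04) and 1374 (S05) RPM in black skin and 1227 (S02), 1321 (S06) and 1472 (S07) RPM in white skin. These levels run side by side in the groups, with the lowest 2 values, in S03 and S02, almost equal. The means were 1293 ± 75.2 RPM in black skin and 1339.8 ± 124 RPM in white skin (SD, n = 3 each), and they differed by -0.05, standard error 0.16 (interval -0.42 to 0.32; limma, adjusted p = 0.896).

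Within the seed family miR-99a held most of the reads. Its share of the miR-99/100 reads was 68.9 ± 3.38% in black skin and 70.8 ± 4.81% in white skin (SD, n = 3 each). The share of miR-100 was 28.4 ± 3.08% in black skin and 26.2 ± 4.38% in white skin, and that of miR-99b was 2.76 ± 0.401% in black skin and 2.91 ± 0.477% in white skin (SD, n = 3 each). Together the 3 made up 4.74 ± 0.637% of all reads in black skin and 4.65 ± 0.479% in white skin (SD, n = 3 each). The sequences of miR-99a and miR-100 are almost the same. The authors' rule for reads that match more than 1 miRNA is not given in the sources used here. The split between miR-99a and miR-100 is therefore uncertain. Their sum is uncertain as well if such reads were counted for each match, as the equal 3p rows of miR-199a and miR-199b allow.

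ssc-miR-125b measured 1370.3 (S03), 1696 (S04) and 1547 (S05) RPM in black skin and 2144 (S02), 1654 (S06) and 1459.7 (S07) RPM in white skin. The white library S02 stood highest and the black library S03 lowest, with the other 4 in between and mixed. The means were 1538 ± 163 RPM in black skin and 1753 ± 353 RPM in white skin (SD, n = 3 each). With all 6 libraries this was the largest difference among the 5 miRNAs, -0.18 with a standard error of 0.19 (interval -0.61 to 0.26; limma, adjusted p = 0.656), and it was -0.02 without S02 and -0.30 without S07. Of the 454 tested miRNAs, 337 had a larger absolute difference.

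ssc-miR-125a measured 1323 (S03), 1427 (S04) and 1786 (S05) RPM in black skin and 1795 (S02), 1777 (S06) and 1183 (S07) RPM in white skin. The black library S05 lay with the white libraries S02 and S06, and the white library S07 was the lowest of all. The means were 1512 ± 243 RPM in black skin and 1585 ± 348 RPM in white skin (SD, n = 3 each), with a difference of -0.05 and a standard error of 0.22 (interval -0.55 to 0.44; limma, adjusted p = 0.911). Its coefficient of variation of 21.98% in white skin was the highest of the 5 miRNAs in either group. miR-125a made up 49.5 ± 3.96% of the miR-125 reads in black skin and 47.4 ± 3.85% in white skin (SD, n = 3 each), so neither of the pair led. The family as a whole held 0.305 ± 0.0326% of all reads in black skin and 0.334 ± 0.0653% in white skin (SD, n = 3 each).

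The order of levels was the same in every library for the upper tier, with ssc-miR-99a above ssc-miR-100 and ssc-miR-100 above each of the others in 6 of 6 libraries. In the lower tier ssc-miR-125b exceeded ssc-miR-125a in 4 of 6 libraries and ssc-miR-99b in 5 of 6. ssc-miR-99b lay below ssc-miR-125a in 5 of 6. The order in this tier thus varied between libraries, and whether these levels differ was not tested. The miR-99/100 reads exceeded the miR-125 reads 15.6 ± 2.24-fold in black skin and 14.2 ± 2.53-fold in white skin (SD, n = 3 each). At least 8526 reads stood behind each value of the 5 miRNAs, which gives a counting error of at most 1.08%, counting error only, so the spread between libraries of a group is above it.

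**Figure D2:**
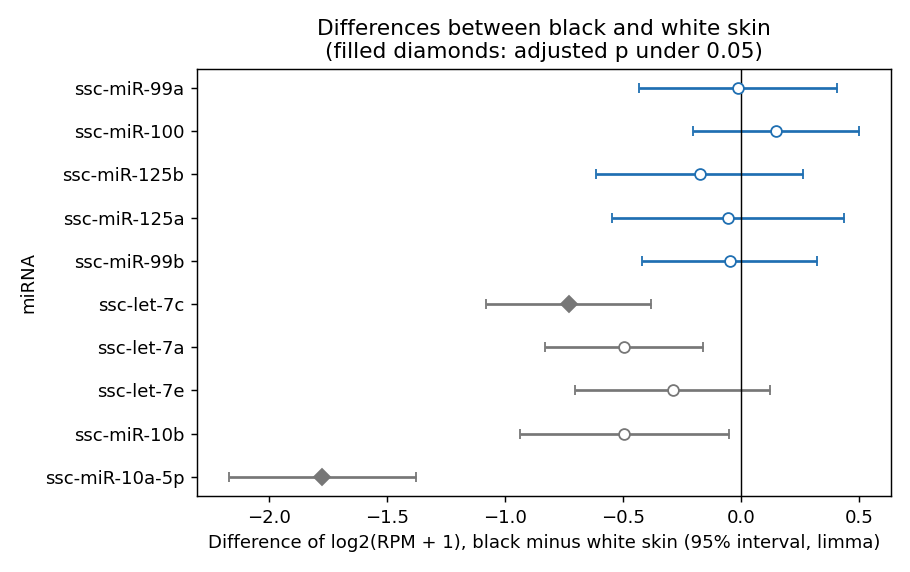
Difference of log2(RPM + 1), black minus white skin, with its 95% interval (limma) for the 5 miRNAs (blue), the let-7 miRNAs of their clusters and the related miR-10 miRNAs (grey); filled diamonds mark an adjusted p under 0.05. The 5 intervals in blue span 0, while those of ssc-let-7c, ssc-let-7a, ssc-miR-10b and ssc-miR-10a-5p lie below it, of which ssc-let-7c at -0.73 and ssc-miR-10a-5p at -1.78 passed the adjusted threshold.

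The median difference of the 5 miRNAs was -0.05 and their median absolute difference 0.05, against a median of 0.0022 and a median absolute difference of 0.35 over all 454 tested miRNAs. Over the 53 miRNAs with a mean of at least 1000 RPM, as all 5 have, the median absolute difference was 0.29. Of the 5 differences 4 were below 0. The related miR-10 miRNAs resemble the miR-99/100 family in sequence with a shifted seed, and of their 3 products 2 were lower in black skin, ssc-miR-10a-5p by 3.43-fold and the scarce ssc-miR-10a-3p. ssc-miR-10b differed by -0.49 without passing the test (limma, adjusted p = 0.154).

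In the RefSeq annotation of Sscrofa11.1 the hairpins located for the 5 miRNAs lie in 3 clusters, each with 1 let-7 hairpin. On chromosome 13, MIR99A at 181302483 to 181302562 and MIRLET7C at 181303209 to 181303302 lie 646 bases apart, both within the span of LOC106508546, which is annotated as protein-coding. On chromosome 9, MIR125B-1 lies at 49109435 to 49109514 within the span of the long non-coding RNA LOC106504205. MIRLET7A-1 at 49152586 to 49152665 and MIR100 at 49157909 to 49157988 follow it outside annotated genes, 43.1 kb and 5.24 kb from hairpin to hairpin. On chromosome 6, MIR125A at 58331566 to 58331645, MIRLET7E at 58332042 to 58332121 and MIR99B at 58332211 to 58332280 fill 715 bases, outside annotated genes and 616 bases past the long non-coding RNA LOC110261042. In mammals miR-125b and let-7a are each made by more than 1 hairpin, and a further miR-125b hairpin is known beside miR-99a and let-7c, so neither mature miRNA can be assigned to chromosome 9 from these values.

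**Figure D3:**
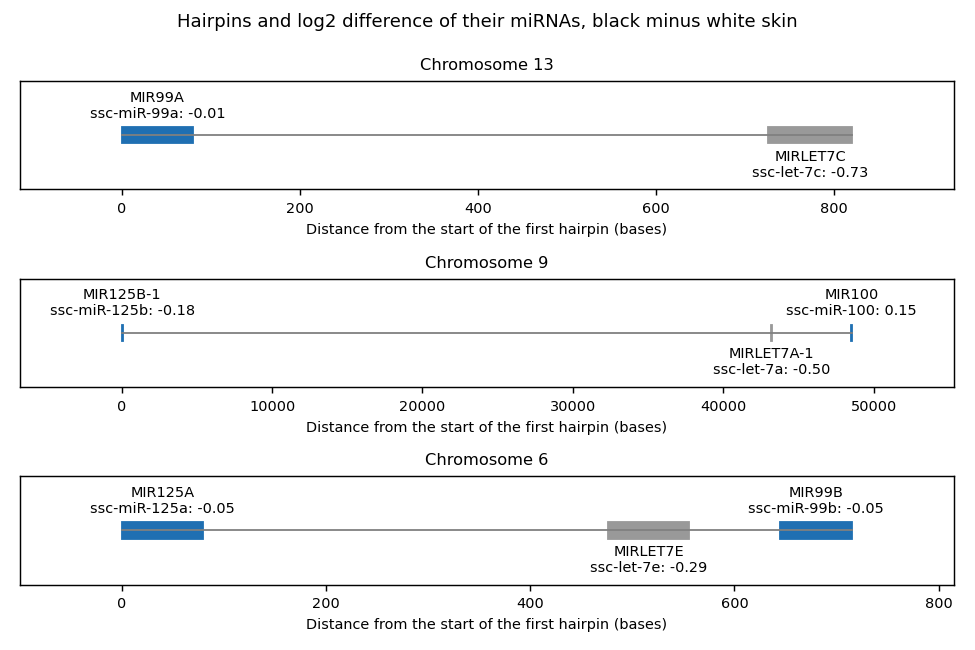
Hairpins of the 3 clusters drawn to scale by distance in bases from the first hairpin, each panel with its own scale, with the log2(RPM + 1) difference of the mature miRNA, black minus white skin, printed beside it. Blue boxes are the 5 miRNAs and grey boxes the let-7 hairpins, and in each cluster the let-7 miRNA has the most negative difference.

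The let-7 miRNAs of these clusters all had lower means in black skin, and 1 of the 3 passed the test. ssc-let-7c, the neighbour of miR-99a, measured 16685 (S03), 20805 (S04) and 17221 (S05) RPM in black skin and 28482 (S02), 32530.0 (S06) and 29472 (S07) RPM in white skin, and each black value lay below each white one. It was 1.65-fold lower in black skin, with a difference of -0.73 and a standard error of 0.15 (limma, adjusted p = 0.0318), and the call was lost without S03 (adjusted p = 0.107), S05 (0.109), S06 (0.116) or S07 (0.0574). ssc-let-7a, which has a hairpin beside those of miR-100 and miR-125b, averaged 20048 ± 1480.4 RPM in black skin and 28285 ± 2305 RPM in white skin (SD, n = 3 each). Its groups did not overlap either, but the difference of -0.50 missed the threshold (limma, adjusted p = 0.0804). ssc-let-7e, between miR-125a and miR-99b, averaged 1034 ± 43.9 RPM in black skin and 1276 ± 212 RPM in white skin (SD, n = 3 each; -0.29, limma, adjusted p = 0.368), with -0.19 without S07 and -0.43 without S02. Lower means were not limited to these clusters. Of the 9 tested products of the wider let-7 family, 1 was called lower, 0 higher, and 8 had a difference below 0, with a median of -0.31. Over all 454 tested miRNAs, 3.08% were called lower, 3.96% were called higher and 27.3% had no overlap, with a median difference of 0.0022. The 9 let-7 family products summed to 148544 to 160526 RPM in black skin and 193132 to 225911 RPM in white skin. let-7b of the same family was not analysed here. The unknown rule for reads that match more than 1 miRNA leaves the split between let-7 miRNAs uncertain too, and with it their differences and ratios. ssc-let-7i (-0.53), ssc-let-7d-5p (-0.46) and ssc-let-7g (-0.31), whose hairpins lie elsewhere, did not pass the test (limma, adjusted p = 0.150, 0.134 and 0.221). Other products differed little, with ssc-let-7f at -0.05, ssc-miR-98 at -0.04 and ssc-let-7d-3p at 0.0077 (limma, adjusted p = 0.869, 0.926 and 0.980). The abundant ssc-let-7f averaged 22618 RPM in black skin and 23483 RPM in white skin.

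Set against these neighbours within each library, which removes the scaling, 3 of the 5 miRNAs had ratios that were higher in black skin without overlap between the groups. Over all tested miRNAs other than the let-7 itself, 453 in each case, this held for 55.6% set against let-7c, 42.4% set against let-7a and 24.1% set against let-7e, so the count is not a result about the 5. The ratio of miR-99a to let-7c was 1.73 (S03), 1.91 (S04) and 1.73 (S05) in black skin and 1.37 (S02), 0.928 (S06) and 1.01 (S07) in white skin. In black skin miR-99a thus had more reads than let-7c in every library, and in white skin the ratio scattered around equality, with S02 nearest to the black libraries. On the log2 scale the ratio was 0.84 ± 0.08 in black skin and 0.12 ± 0.30 in white skin (SD, n = 3 each), a difference of 0.72.

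The ratio of miR-100 to let-7a was 0.704 (S03), 0.631 (S04) and 0.665 (S05) in black skin and 0.381 (S02), 0.376 (S06) and 0.542 (S07) in white skin. Every black library again lay above every white one, with S07 the nearest, and the log2 difference was 0.64. The ratio of miR-99b to let-7e was 1.23 (S03), 1.26 (S04) and 1.27 (S05) in black skin and 1.18 (S02), 0.992 (S06) and 1.01 (S07) in white skin, with a small log2 difference of 0.24. For these 3 ratios a two-sided exact permutation test gave p = 0.1, the minimum possible with 3 libraries a group, and 0.167 after adjustment over the 5 neighbour ratios. The ratios were chosen after their values were seen.

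For the miR-125 miRNAs the ratio to the let-7 neighbour overlapped between the groups. The log2 ratio of miR-125b to let-7a was -3.71 ± 0.10 in black skin and -4.03 ± 0.19 in white skin (SD, n = 3 each; difference 0.32, two-sided exact permutation p = 0.2, adjusted p = 0.25). That of miR-125a to let-7e was 0.54 ± 0.16 in black skin and 0.30 ± 0.55 in white skin (SD, n = 3 each; difference 0.24, two-sided exact permutation p = 0.7), where the white libraries alone ran from -0.30 in S07 to 0.78 in S02.

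**Figure D4:**
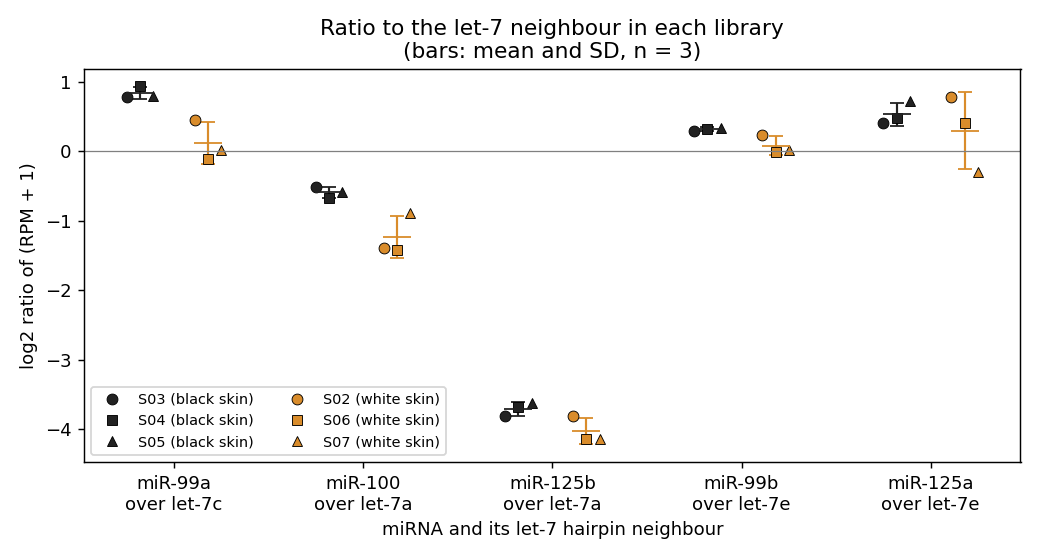
log2 ratio of each miRNA to the let-7 miRNA of its cluster, computed from RPM + 1 in each library, with black skin left of white skin; points are libraries and bars the mean and SD of 3. The black points lie above the white points without overlap for miR-99a over let-7c, miR-100 over let-7a and miR-99b over let-7e.

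Among the 5 miRNAs themselves, the groups overlapped in all 10 pairwise ratios, and 0 passed the exact permutation test, as none could with 3 libraries a group. With all 6 libraries the largest difference was that of miR-100 to miR-125b, with a log2 ratio of 3.12 ± 0.16 in black skin and 2.80 ± 0.42 in white skin (SD, n = 3 each; difference 0.32, two-sided exact permutation p = 0.3, adjusted over 10 pairs p = 1). It was 0.13 without S02, where miR-99a to miR-99b gave 0.23, and 0.55 without S07. In single libraries miR-100 exceeded miR-125b 9.91-fold (S03), 8.09-fold (S04) and 8.21-fold (S05) in black skin and 5.34-fold (S02), 6.62-fold (S06) and 9.54-fold (S07) in white skin. The ratio of miR-125a to miR-99b, from the compact cluster on chromosome 6, was 1.08 (S03), 1.12 (S04) and 1.30 (S05) in black skin and 1.46 (S02), 1.35 (S06) and 0.803 (S07) in white skin. The spread within white skin covered all black values, and the difference of the log2 ratio of miR-99b to miR-125a was 0.0046 (two-sided exact permutation p = 1).

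Profiles over the 6 libraries, each centred on its own mean in log2(RPM + 1), were compared next. Likeness was measured as the root mean square distance between centred profiles, and the 241 other tested miRNAs with a porcine name served as candidates. Of the other 4 miRNAs, ssc-miR-125b lay nearest to ssc-miR-99a, at a distance of 0.13 and in place 5 of 241, and S04 and S02 were above the mean in both. ssc-miR-100 was in place 52 for ssc-miR-99a, at 0.25, where the median distance over the candidates was 0.39. ssc-miR-100 and ssc-miR-99b were closer to each other, at 0.14. ssc-miR-125a was in place 29 for ssc-miR-125b, at 0.19.

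The candidates nearest to each miRNA were of varied families. ssc-miR-30c-3p, ssc-miR-4334-3p and ssc-miR-30a-3p came first for ssc-miR-99a, at 0.058, 0.091 and 0.098. For ssc-miR-100 they were ssc-let-7d-3p, ssc-miR-23b and ssc-miR-27b-3p, at 0.098, 0.13 and 0.14, and for ssc-miR-99b ssc-let-7f, ssc-let-7d-3p and ssc-miR-7134-3p, at 0.055, 0.078 and 0.090. ssc-miR-30d, ssc-miR-874 and ssc-miR-183 were nearest to ssc-miR-125a, at 0.11, 0.12 and 0.15, and ssc-miR-504, ssc-miR-183 and ssc-miR-103 to ssc-miR-125b, at 0.088, 0.11 and 0.12. Some of these candidates were scarce, such as ssc-miR-30c-3p at a mean of 12.7 RPM and ssc-miR-874 at 6.51 RPM. Fewer reads bring a larger counting error, so the places of scarce candidates are less certain. The distances describe 6 libraries that share their scaling, and no test was made of them.

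**Figure D5:**
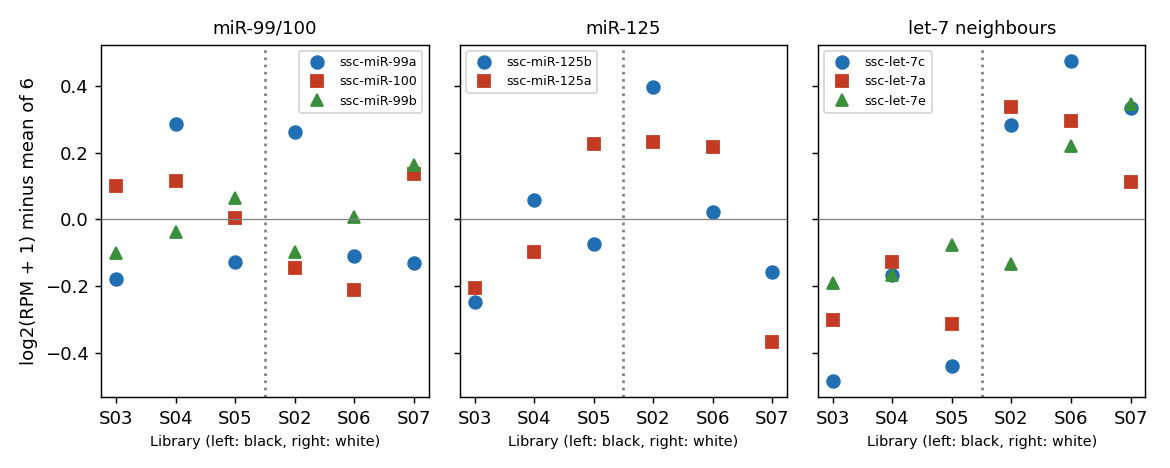
log2(RPM + 1) of each miRNA in each library minus its mean over the 6 libraries, for the miR-99/100 family, the miR-125 family and the let-7 miRNAs of their clusters; black libraries are left of the dotted line and white libraries right of it. No miRNA of the miR-99/100 and miR-125 families has all 3 black libraries on one side of 0 and all 3 white ones on the other, while ssc-let-7c and ssc-let-7a are below 0 in all 3 black libraries and above it in all 3 white ones.

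ssc-miR-99a, ssc-miR-100 and ssc-miR-125b also belong to a list of miRNAs known from fibroblasts and mesenchymal cells, of which 22 products were tested. In that list 1 product was higher and 1 lower in black skin, and 20 did not pass, with a median of 0.04, against 0.0022 over all tested miRNAs. The higher one was ssc-miR-143-3p (1.29, limma, adjusted p = 0.0031), and the products of miR-143 and miR-145 are also the smooth muscle markers above. ssc-miR-99a, ssc-miR-100 and ssc-miR-125b enter the counts and the median themselves, so the list is not a separate background for them. The defining fibroblast markers miR-199a, miR-199b and miR-214 summed to 25075 to 34133 RPM in black skin and 29774 to 44259 RPM in white skin. Of their 5 products 1, ssc-miR-214, was lower (-0.88, limma, adjusted p = 0.0408). The 3p rows of miR-199a and miR-199b hold equal values, and both enter these sums, the 5 products and the 22 products.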

How the data were processed

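A single deposited table holds all values. Its unit was taken to be RPM because every deposited column adds up to 1000000. Bowtie and build Sscrofa11.1 are named, without a role, in the submitters' processing notes; how reads were counted and filtered, and against which miRNA release, is not given in the sources used here. Dividing by the smallest value of a library gave whole numbers for 100% of values (tolerance 0.001), which were taken as reads. All 6 columns were used and 0 left out. No listed row had values identical to those of the 5 miRNAs. A chi-square test of reads gave at least 249 per degree of freedom for every pair of libraries, so none was treated as a duplicate.

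Low miRNAs were removed with filterByExpr of edgeR 4.0.16 on these reads, at a minimum count of 10 and a minimum total of 15. Values as log2(RPM + 1) were fitted with limma 3.58.1 (R 4.3.3, trended variance) over all remaining miRNAs, black minus white, with Benjamini-Hochberg adjustment and a threshold of 0.05. The script was tested on simulated data. Ratios were tested by exact permutation, two-sided. The 5 miRNAs and all lists were chosen with earlier results of these data known. The text names the 5, their let-7 neighbours, miR-10 products, the 3 nearest profiles of each and the cell type markers. Precursor positions and gene neighbours are those of RefSeq on Sscrofa11.1, without strand. Alternatives covered scaling, filters, pseudocounts, edgeR, DESeq2 1.42.0 and limma-voom on recovered reads, the feature set and leaving out each library.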

Additional observations from a re-analysis of the deposited data

How the results depend on the processing

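None of the 5 miRNAs passed the threshold in any of 85 fits under the alternatives tried, where the smallest adjusted p was 0.382. Directions near 0 were not stable when 1 library was left out: ssc-miR-99a ran from -0.16 to 0.11, ssc-miR-99b from -0.11 to 0.021 and ssc-miR-125a from -0.25 to 0.049, while ssc-miR-100 (0.08 to 0.25) and ssc-miR-125b (-0.30 to -0.02) kept their sign. ssc-let-7c ran from -0.83 to -0.67, with adjusted p from 0.0324 to 0.116, and ssc-let-7e from -0.43 to -0.19. The log2 ratios whose difference turned sign ran from -0.12 to 0.23 (miR-99a to miR-99b), -0.33 to 0.0035 (miR-99a to miR-100), -0.14 to 0.23 (miR-99a to miR-125a), -0.16 to 0.27 (miR-99b to miR-125a), -0.091 to 0.32 (miR-99b to miR-125b) and -0.063 to 0.48 (miR-125a to let-7e). Those of miR-99a to let-7c (0.60 to 0.88), miR-100 to let-7a (0.55 to 0.82) and miR-99b to let-7e (0.19 to 0.32) kept theirs. Their groups do not overlap, so leaving out 1 library could not turn the sign, and this adds no support. Among ratios that overlap, the sign held for miR-100 to miR-125b (0.13 to 0.55) and miR-125b to let-7a (0.27 to 0.43). It also held for miR-99a to miR-125b (0.088 to 0.23) and miR-99b to miR-100 (-0.28 to -0.14). The same was true of miR-100 to miR-125a (0.037 to 0.50) and miR-125a to miR-125b (0.0023 to 0.25).

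With predicted identifiers left out before scaling, the differences of the 242 named miRNAs shifted by -0.09, to a median of -0.14, and ssc-let-7a at -0.59 passed the threshold (adjusted p = 0.0391); relative to that shift it was -0.50 and ssc-miR-99a -0.02. The predicted identifiers held 11.0 to 13.3% of reads in black skin and 14.8 to 18.6% in white skin. Calls over all miRNAs numbered 53 with DESeq2, 34 of them higher in black skin. Without 1 library there were 7 to 41 calls, 3 to 23 higher and 3 to 18 lower. The split was 13 higher and 17 lower with edgeR, and 16 higher and 19 lower without predicted identifiers. The cause was not tested. No paired analysis was possible because the labels give neither the animals nor a pairing of black and white libraries. Counting error was at most 1.08% for the 5 miRNAs, so depth adds little to the intervals of their differences. Those intervals rest on the spread between 3 libraries a group and on a variance that limma shares over all tested miRNAs.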
